A study of Mus musculus with 2 samples.

Results

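Unspliced antisense models are transcript models of a single exon that lie on the strand opposite to a gene. They were taken from long-read RNA sequencing of the mouse adrenal gland by a rule on the deposited tables. Members were chosen by the read count, class and exon number of each table: a model was taken in a library where its class was antisense, it had 1 exon and it held at least 2 reads. The rule found 9431 models of 225143 listed with a read in the 2 libraries, 4409 of 112323 in replicate 1 and 5022 of 112820 in replicate 2. Both libraries came from adrenal glands of 14-day-old male mice of the F1 hybrid B6CASTF1/J, with no treatment named. The labels call them biological replicates 1 and 2, give both the same donor identifier and mention a set of 3 males. They do not say whether the libraries came from separate animals, so the spread between them may be partly technical. Replicate 1 held 964679 reads and replicate 2 held 984958 reads outside the ERCC spike-ins, which are synthetic RNAs added to the sample. With 2 libraries of 1 group the study has no contrast between conditions.

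In long-read sequencing a read can span a transcript from its start to its poly(A) tail. The splicing of the molecule is read directly. Natural antisense transcripts arise where a gene is also transcribed from its other strand, often from a promoter near the gene's start, from an intron or from a neighbouring gene that runs past its end. Some of them, such as Tsix at Xist or Airn at Igf2r, silence the gene they overlap. Introns are the usual proof of strand in a complementary DNA read, because splice sites can be read in only 1 direction. A model of 1 exon carries no such mark, so its strand rests on the orientation of the read. Reverse transcription from an oligo(dT) primer begins at a poly(A) tail and can also begin at a run of A inside an RNA. The primer is not given in the labels used here.

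The choice rests on the read count, so the counts of members are a description. Just inside the rule lay 2021 models with 2 reads in replicate 1 and 2289 in replicate 2, which was 45.8% and 45.6% of the members. Just outside it lay 8491 and 10023 models with 1 read. The members held 26161 and 30623 reads, and those outside the spike-ins made up 2.70% and 3.09% of all such reads. A model of 2 reads stood at 2.07 counts per 1000000 reads (CPM) in replicate 1 and 2.03 in replicate 2. Antisense models with introns were fewer: 642 and 709 had any read, and 120 and 94 had at least 2. Members had a median length of 1353.0 bases in replicate 1 and 1068.5 in replicate 2, and the longest spanned 9428 bases. A group of 178 members (86 and 92) was listed with a length of 1 base, starting and ending at the same position. The gene overlapped on the opposite strand is called the host below. A host from the annotation was found for 4066 and 4672 members, of which 95.8% in each library had a protein-coding host. The other 343 and 350 overlapped the listed span of no annotated gene on the opposite strand. In 286 and 290 of these a model of the named gene, with reads in the same table, reached over the member. An annotated exon can reach past the listed span of its gene. How many of these members lie in such exons was not tested.

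The bases that follow the 3' end of a member on its own strand are shown first, since they carry the clearest pattern in the members. Bases were read from GRCm38 exons, rebuilt from the transcript sequences of the annotation. A 3' end is called free where it did not fall on an annotated exon boundary of either strand. The windows below belong to loci named in the results and end at the free 3' end of the most-read member of a library. They give the last 10 bases of the model in lower case and the next 20 genome bases in capitals, 5' to 3' on the strand of the member.
Sdc4, chr2:164425125-164425154, plus strand, both libraries: acggagcattAAAAAAAAAAAAAAAAAAAA
2900097C17Rik, chr2:156391505-156391534, plus strand, both libraries: cacaaaatgtAAAAAAAAAAAAAAAAAAAA
Tacc1, chr8:25158024-25158053, plus strand, replicate 1: agattaaggcAAAAAAAAAAAAAAAAAAAA
Fdx1, chr9:51945837-51945866, plus strand, both libraries: atgatgggtgAAAAAAAAAAAAAAAAAAAA
Soat1, chr1:156428523-156428552, plus strand, both libraries: acatggtttgAAAAAAAAAAAAAAAAAAAA
Zkscan1, chr5:138103717-138103746, minus strand, both libraries: cagttgctttAAAAAAAAAAAAAAACAAAA
Gata3, chr2:9857426-9857455, plus strand, both libraries: atccagagagAAAGAAAAAAAAAAACAAAA
Gnb1, chr4:155558050-155558079, minus strand, replicate 2: gccagggacaAAAAAAAAAAAAACATCAGT
Tubb5, chr17:35834684-35834713, plus strand, replicate 1: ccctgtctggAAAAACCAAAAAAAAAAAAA
Gnb1, chr4:155557941-155557970, minus strand, replicate 1: aaagtcttgcTACAAATGACTTATATTTAG
Tubb5, chr17:35834657-35834686, plus strand, replicate 2: acagcctgggCTATATATACAGAGAAACCC
Nfia, chr4:98111250-98111279, minus strand, replicate 1: ggggtcaggtGGTCTGTCTGGAGGATGGTG
The first 5 windows run into 20 A without a break, while the Nfia window holds 2 A among the 20 bases. In Gnb1 and Tubb5 the end differed between the libraries, and an A-rich stretch followed in only 1 of them.

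Over all named loci, 31 windows from 18 loci could be read, and 20 of them had at least 12 A in the 20 bases after the end. The same count was made for every member that lay inside host exons and had a free 3' end. The bases were at hand for 562 of 563 such members in replicate 1 and 677 of 678 in replicate 2. An A-rich stretch, at least 12 A in 20, followed 75.4% of these ends in replicate 1 (95% Wilson interval 71.7 to 78.8) and 75.8% in replicate 2 (72.4 to 78.9). The median was 16 A of 20 in each library. Read over every position in the exons of the same 763 hosts, on the members' strand, 2.69% of 20-base windows were as rich in A. A stretch of at least 12 T followed 0.712% and 0.443% of the ends. Exonic antisense models of 1 read, just outside the rule, were followed by an A-rich stretch as often, at 77.5% in each library.

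The opposite order was found at unspliced models of the sense strand. For these, models of the genomic or incomplete splice match class with at least 2 reads and a free 3' end inside their own gene's exons were read in the same way. An A-rich stretch followed 14.0% of 565 ends in replicate 1 and 12.5% of 710 in replicate 2. The poly(A) signal, searched as AATAAA or ATTAAA on the model's strand in the 50 bases before the end, was in 57.2% and 61.8% of these sense models. Known transcripts with at least 2 reads held it in 72.4% and 72.2%. Among the exonic antisense members it was in 11.2% (8.86 to 14.1) and 12.3% (10 to 14.9), and in 6.56% of all 50-base windows of the hosts' exons on that strand. The reverse complement, TTTATT or TTTAAT, was in 4.09% and 4.87% of the antisense windows. Where the 3' end of a member fell on an exon boundary, 10.2% and 12.2% were followed by an A-rich stretch, but bases were at hand for only 54.5% and 56.3% of these. For all members with a free 3' end this check is void, since bases were at hand for 20.4% and 21% of them: most lie in introns, whose sequence was not used here. Models share hosts and are not replicates, so no test was made. Whether priming at these stretches made the reads was not tested.

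**Figure D1:**
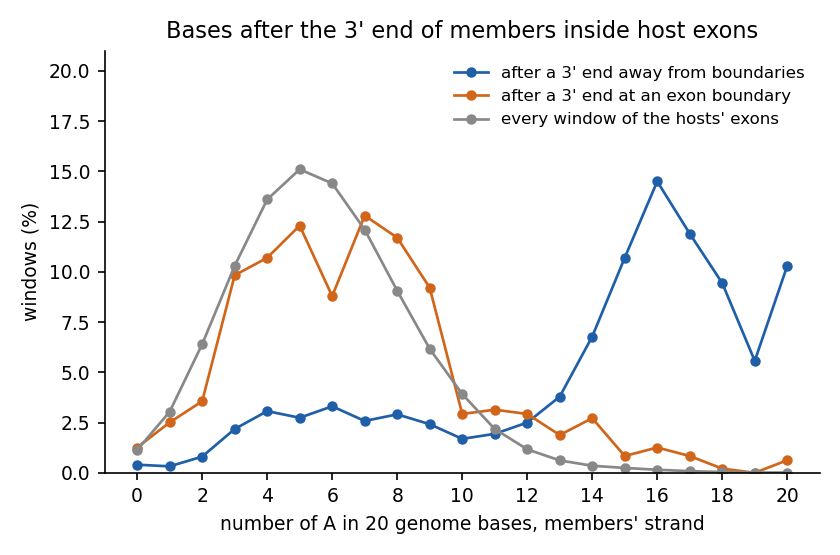
Number of A among 20 genome bases, on the members' strand (x axis), as a share of windows in percent (y axis), with both libraries pooled. Blue points are windows after free 3' ends of members inside host exons, with a median of 16 A, orange points are windows after 3' ends on an exon boundary, and grey points are all windows of the hosts' exons, of which 2.69% hold at least 12 A.

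Model ends were not free of the annotation. The 5' end of 1397 of 4405 members in replicate 1 and 1500 of 5019 in replicate 2 fell exactly on an exon boundary annotated on the host's strand, spike-ins left out. For the 3' end the numbers were 1032 and 1144. The next 100 bases on either side of a boundary held only 30 and 32 of the 5' ends and 24 and 27 of the 3' ends. The counts of 5' ends stayed low up to 500 bases, with 49 and 60 in the last 100 of these, and were 201 and 205 in the next 100. The 3' ends stayed low up to 300 bases, with 34 and 49 in the last 100, and were 275 and 282 in the next 100. Boundaries of the members' own strand were met by far fewer ends, 41 and 46 of the 5' ends and 28 and 27 of the 3' ends. In all, 44.7% and 42.3% of members had an end on a boundary of either strand. An end on such a boundary is therefore not read here as the place where a transcript started or stopped.

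**Figure D2:**
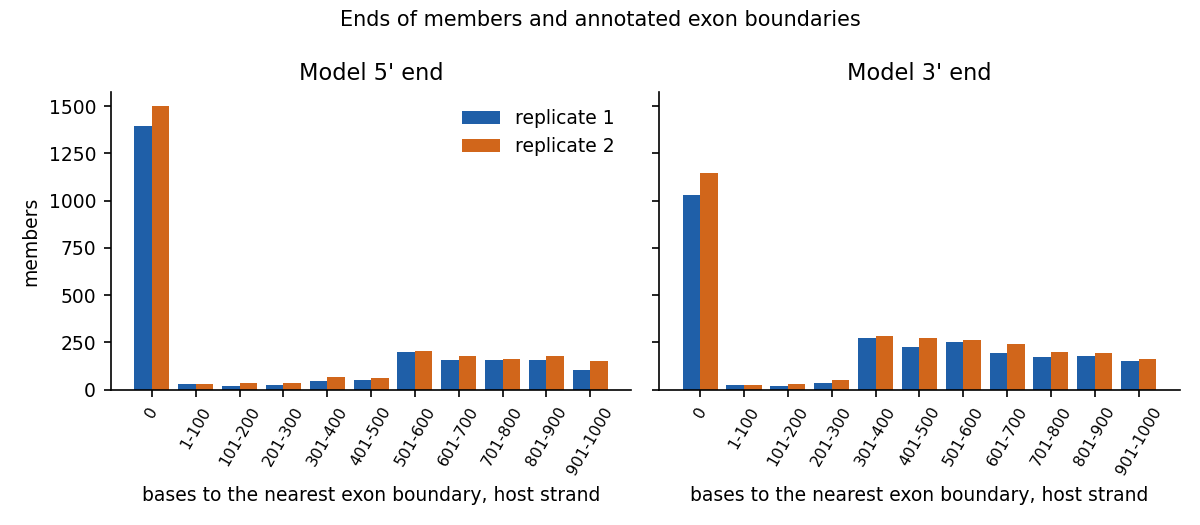
Distance in bases from each end of a member to the nearest annotated exon boundary on the host strand (x axis) against the number of members (y axis), blue for replicate 1 and orange for replicate 2. The bar at 0 holds 1397 and 1500 of the 5' ends and 1032 and 1144 of the 3' ends, and the bars beside it are nearly empty up to 500 bases at the 5' end and 300 bases at the 3' end.

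The 3' ends of members were steadier between the libraries than the 5' ends. In loci with 1 member in each library, both 3' ends were free in 1584 cases, and in 80.2% of them the ends lay within 20 bases of each other, with 895 at the same base. Both 5' ends were free in 1324 cases, of which 39.0% lay within 20 bases and 243 were at the same base. The median distance between the libraries was 0 bases for the 3' end and 211.5 bases for the 5' end. Where the 3' ends were not both free, 81.5% of 620 lay within 20 bases, and of 880 such 5' ends 45.9% did.

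Members on the same strand that overlapped were merged over both libraries into 6753 loci. Of these, 2395 had a member in both libraries, 1885 only in replicate 1 and 2473 only in replicate 2. With models of 1 read counted too, where at least 50% of the model lay in the locus, 3899 loci (57.7%) held reads in both. The library that was not used for the choice gives the fairer figure. Loci chosen in replicate 1 held a read in replicate 2 in 64.1% of 4321 cases (62.6 to 65.5), and loci chosen in replicate 2 held a read in replicate 1 in 55.7% of 4923 (54.3 to 57.1). The share grew with depth. It was 50.1% for loci of 2 reads in replicate 1 and 82.5% for those of 10 or more, and 40.4% and 80.5% in the other direction. With any overlap of 1 base accepted, loci of 10 or more reads were found again in 94.5% and 92.6%. Across 1078 loci with at least 10 reads over both libraries, read counts of the libraries had a Pearson correlation of 0.46 on the log2 scale. The Spearman correlation was 0.47. Both are given as a description over loci that share the same 2 libraries. Choosing loci by the sum of both libraries can lower such a correlation in itself, and loci with 0 reads in 1 library were included.

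Introns held more members than exons, and most of the members with 50 or more reads lay in exons. In replicate 1, 37.0% of members lay only in host introns, 27.7% over exon and intron, and 21.8% only in exons. In replicate 2 the shares were 40.3%, 25.1% and 22.8%. Members over the host's start made up 3.56% and 3.13%, and those over its end 1.93% and 1.61%, counting a boundary as crossed beyond 50 bases. Start and end were those listed for the gene, and annotated exons can reach past them. Some members counted there, as at Zkscan1, therefore lay wholly in exons. A last exon of the host held all of 20.1% and 20.7% of members. At least 50% of the bases lay in a 3' untranslated region (UTR), the part of a messenger RNA after its coding sequence, in 16.8% and 17.4%. Exons made up 8.27% and 8.03% of the bases of the host genes, 22.7% and 22.9% of the bases of members, and 44.6% and 46.9% when each member was weighted by its reads.

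The place moved with the number of reads. The exon-only share was 13.4% and 13.2% for models of 1 read, 17.0% and 17.6% for those of 2, 39.5% and 46.2% for 10 to 49 reads, and 69.4% and 72.0% for 50 or more, of which there were 36 and 50. The share in introns went the other way, from 50.7% and 52.9% at 1 read to 2.78% and 6% at 50 or more. Because so many ends fell on exon boundaries, the shares were also taken over members with both ends free. There, 64.1% and 67.3% lay only in introns and 15.1% and 14.9% only in exons. Among those of 10 or more reads with free ends, 38.9% and 41.7% lay only in exons and 41.4% and 39.9% only in introns, so the shares of the 2 places were close there. Without the condition on the ends, 42% and 48.8% of members with 10 or more reads lay only in exons and 20.8% and 20.9% only in introns. Few members lay shortly after the end of a gene on their own strand: 9.28% and 8.55% began within 5 kilobases after one. The shares were 6.75% and 7.01% for antisense models of 1 read. They were 14.5% and 17.0% for unspliced intergenic models with at least 2 reads. These comparisons were not tested.

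**Figure D3:**
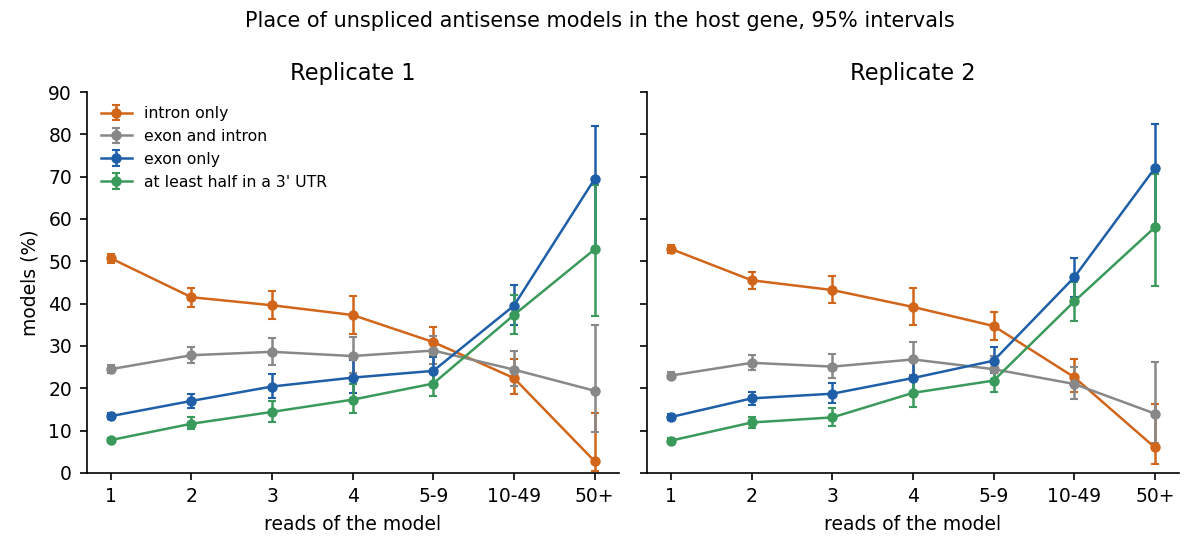
Share of unspliced antisense models in percent (y axis) by the reads of the model (x axis), for replicate 1 (left) and replicate 2 (right), with 95% Wilson intervals. The exon-only share (blue) goes from 13.4% and 13.2% at 1 read to 69.4% and 72.0% at 50 or more, and the intron-only share (orange) falls to 2.78% and 6%.

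The 20 loci with the most reads held 19.2% of the reads of all loci, and 19 of them lay only in host exons. In 12 of the 20 at least 50% of the bases lay in a 3' UTR, against 11.7% of loci with 2 to 9 reads. First came a locus over Gm26917, a long non-coding RNA gene of chromosome 17, at chr17:39843013-39846245 on the minus strand, with 1523 reads in replicate 1 and 1536 in replicate 2. Next to it at chr17:39846353-39846958, on the plus strand, a locus over the ribosomal RNA gene CT010467.1 had 101 and 158 reads. CT010467.1 itself is on the minus strand, as is the Gm26917 locus, and ends 108 bases upstream of that locus. Whether the reads at Gm26917 continue the ribosomal transcript was not tested. Ribosomal genes have many near-identical copies, so the placement of these reads is uncertain. Actb, the cytoskeletal actin, had 556 and 790 antisense reads over its 3' UTR at chr5:142903234-142903654, beside 924 and 819 sense reads. Actin genes have similar copies too, and both ends of this model were exon boundaries.

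Several 3' UTR loci held more reads than the sense strand of the gene entry they lay against. Sense reads were summed over that 1 entry, and any other entry with the same symbol was not added. At Sept2, a septin of the cytoskeleton, the counts were 221 and 248 antisense and 12 and 6 sense. Cdv3 had 263 and 304 antisense against 37 and 38 sense reads. At both hosts antisense exceeded sense in both libraries, and neither was called between the libraries. Both ends of the Sept2 models were exon boundaries. Nfia, a transcription factor of the nuclear factor I family, had 247 and 276 antisense and 21 and 14 sense reads, in 6 models over its 3' UTR. Sdc4, a cell-surface heparan sulfate proteoglycan, had 154 and 309 antisense reads at chr2:164424247-164425262, with 16 and 27 sense reads. The window printed above is the 3' end of 130 and 258 of them.

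Other loci of the first 20 faced hosts with more sense reads. Kcnk3, a background potassium channel of zona glomerulosa cells, had 155 and 203 antisense reads against 1597 and 1582 sense reads. Plin1, which coats lipid droplets, had 113 and 153 against 320 and 300. Gnb1, a G-protein beta subunit, had 132 and 130 against 270 and 234. In these 3 hosts the antisense reads were below the sense reads in both libraries. Tubb5, a beta tubulin, had 129 and 118 against 343 and 305. Ptp4a2, a protein tyrosine phosphatase, had 163 and 207 against 197 and 158, so the order of the strands turned between the libraries. Malat1, a nuclear long non-coding RNA with a known antisense partner, TALAM1, had 95 and 130 antisense reads at chr19:5796952-5799000 and 60 and 82 sense reads. Camk2b, a subunit of a calcium-dependent kinase, held the most-read intronic locus, at chr11:6005855-6009435, with 93 and 159 reads against 16 and 14 sense reads. The next intronic loci lay in Gp6, with 46 and 42 reads, and in the histone methyltransferase gene Setd2, with 42 in each library.

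Loci over a host's start or end, judged on the merged locus of both libraries, were smaller, apart from Fdx1. Over the end of Fdx1, the ferredoxin that hands electrons to mitochondrial steroid hydroxylases, a locus of 6 models at chr9:51941876-51957069 on the plus strand had 96 and 115 reads, against 1375 and 1481 sense reads. The end printed above carried 54 and 65 of them. Pus7l followed with 35 and 79 reads, Acsl4 with 45 and 54, Rbm47 with 47 and 41 and Zkscan1 with 42 and 40. The most-read model at Zkscan1 lay wholly inside a last exon, which reaches past the end listed for the gene. At Acsl4 the model of replicate 1 lay only in an exon, and the model of replicate 2 ran over the end. Over a host's start, the mitochondrial phosphate carrier gene Slc25a3 had 25 and 28 reads and Fosl2, a transcription factor of the AP-1 family, had 14 and 23. At Mir1191, a microRNA gene, a locus with 25 and 42 reads ran over the start, but the model of replicate 1 itself overlapped no annotated host. Among members with at least 5 reads, the longest lay against the translation factor gene Eif3a, with a length of 9428 bases and 16 and 6 reads, Slc25a17, with 5 and 9, and Hnrnpc, with 17 and 23. Hosts with no sense read in either library had few antisense reads: after CT010467.1 came mt-Nd6, with 11 and 18, and Adam22, with 12 and 16. At mt-Nd6 other unspliced models of the same strand held 340 and 747 reads, and annotated genes of that strand lie there.

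Among loci with reads on both strands, antisense reads hardly followed the level of the host. Genes with more sense reads did host a locus more often. The loci over annotated hosts held 9.46 antisense reads for every 100 sense reads of their hosts in replicate 1 and 10.9 in replicate 2. Across 4501 and 4977 loci with reads on both strands, the Pearson correlation of log2 antisense and log2 sense reads was 0.07 and 0.08, and the Spearman correlation 0.05 and 0.08. The points share their library, and many sit at 2 reads, so the values are a description. Genes without an antisense read are not among the points. By place, exon-only loci had 15.6 and 20.0 antisense reads per 100 sense reads, intron-only loci 6.19 and 7.12, and loci over the start 4.23 and 4.93. More antisense than sense reads were found at 566 of 4701 loci in replicate 1 and 650 of 5200 in replicate 2. Among loci of 50 or more reads over both libraries this held for 64 of 111 and 70 of 113. Picking loci for many antisense reads raises this share in itself. Hosts had a median of 24 and 21 sense reads, against 13 and 12 over all annotated genes with reads. Of annotated genes with a sense read, 20.3% and 21.1% hosted a locus with reads, and of those with at least 500 sense reads 32.0% and 31.7% did. In these whole glands fewer cells with a transcript cannot be told apart from less RNA per cell.

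**Figure D4:**
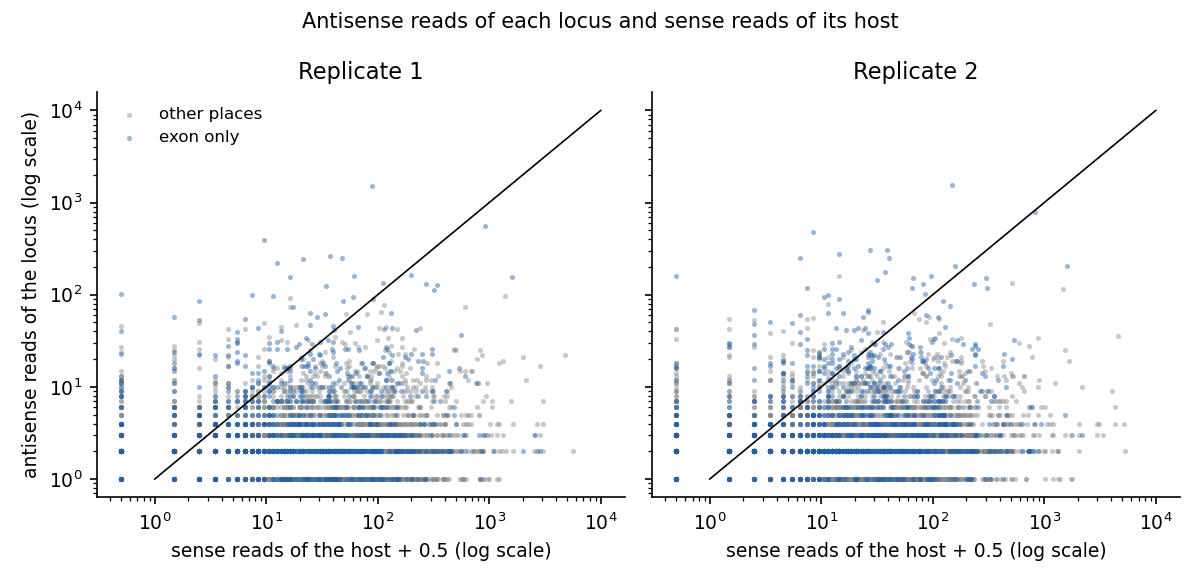
Sense reads of the host plus 0.5 (x axis, log scale) against antisense reads of the locus (y axis, log scale) for loci over an annotated host, replicate 1 on the left and replicate 2 on the right. The line marks equal reads, 566 and 650 loci had more antisense than sense reads, and exon-only loci are blue.

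Genes of steroid synthesis, the work of the adrenal cortex, hosted 255 antisense reads in replicate 1 and 332 in replicate 2. Of 26 steroidogenesis genes, all with sense reads, 10 hosted loci, where 22.4% of all annotated genes with sense reads in either library did. Of annotated genes with at least 100 sense reads in a library, 32.0% in replicate 1 and 31.6% in replicate 2 did. The list held 0.504 and 0.548 antisense reads per 100 sense reads of the whole list, genes without a locus included. The 9.46 and 10.9 given above divide by the sense reads of hosts only. Of the loci of this list 11 could be compared between the libraries, by the test described further on. None was called, where 9.01% of all features tested and 6.68% of antisense loci were, so 0 of 11 says little about the list. The median log2 ratio was 0.23 toward replicate 2. None of these loci had more antisense than sense reads in both libraries. Besides Fdx1, Soat1, which esterifies cholesterol, had 54 and 53 reads over 4 loci. Scarb1, the receptor that takes up cholesterol from high-density lipoprotein, had 22 and 46 reads over 3 loci. Mrap, the accessory protein of the corticotropin receptor, had 26 and 30. Star, which carries cholesterol into mitochondria, had 22 and 36 antisense reads against 4829 and 4617 sense reads. No member lay against Cyp11a1, the side-chain cleavage enzyme, despite 15057 and 17887 sense reads, nor against Cyp21a1, the steroid hydroxylase, with 7463 and 6562.

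Beside the lists that follow, 22.4% of all annotated genes with sense reads in either library hosted a locus. Of those with at least 100 sense reads in a library, 32.0% and 31.6% did. Differences of the lists from these shares were not tested. Chromaffin genes, those of the catecholamine-making medulla, hosted loci in 7 of 26 cases. They held 0.215 and 0.249 antisense reads per 100 sense reads of the whole list. None exceeded 6 reads in a library, as in Pam, a peptide-amidating enzyme, with 4 and 6 reads over 2 loci. Nuclear genes of the respiratory chain hosted loci in 11 of 20 cases, with 0.144 and 0.120 antisense reads per 100 sense reads of the list. Adipose genes hosted loci in 6 of 12 cases, and all but Plin1 had at most 11 reads in a library. None of 8 erythroid genes hosted a locus. Of them 7 had sense reads, 14063 and 14279 in all, and so few genes say little. Of 31 genes from known sense-antisense loci, 22 had sense reads and 7 hosted loci, with 46 and 73 reads. Meg3 and Rian, non-coding RNAs of an imprinted cluster on chromosome 12, had 24 and 23 and 13 and 21 reads, and the antisense reads at Rian exceeded its 5 and 8 sense reads. 

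Liver genes differed between the libraries in their sense reads. The 5 liver marker genes summed to 663.4 CPM in replicate 1 and 13364.0 in replicate 2, with none of them at 0. The 5 liver genes with loci, Alb, Hpx, Cps1, Cyp2c70 and Ttr, had 0 antisense reads in replicate 1 and 24 in replicate 2. These loci met the rule only through replicate 2, so the choice bears on the direction of this difference. Their sense reads were 218 and 4327 for Alb, the serum albumin, and 33 and 638 for Hpx, the heme-binding protein hemopexin. Each liver locus had fewer than 10 reads and was not tested. Markers of the adrenal cortex summed to 39452.5 and 39299.1 CPM and those of the medulla to 8171.6 and 7942.5, with none at 0, so the labelled tissue was present in both libraries. Lymph node markers summed to 471.7 and 90.4. The part of these other cell types in differences between the libraries was not tested.

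The libraries were compared by a two-sided exact binomial test on the reads of each feature, with Benjamini-Hochberg adjustment over all 12329 annotated genes, antisense loci and intergenic loci with at least 10 reads. Of all these features 9.01% passed an adjusted p of 0.05, with 4.42% higher in replicate 2 and 4.59% higher in replicate 1. Of 6749 antisense loci outside the spike-ins 1078 could be tested, and 72 (6.68%) passed, 47 higher in replicate 2 and 25 higher in replicate 1. That share lay below the share over all features. At matched depth the shares were close, with that of antisense loci a little above that of annotated genes. Among features of 10 to 19 reads 5.30% of antisense loci and 4.25% of annotated genes were called. At 20 to 49 reads the shares were 6.50% and 5.22%. Among features of 50 or more reads 15% of 113 antisense loci and 13.0% of 5894 annotated genes were called. These differences were not tested. The test compares 2 libraries and treats reads as independent molecules, and a locus that was not called is not shown to be equal in them. Scaling by TMM, which moved the median log2 ratio of annotated genes from -0.15 to -0.00 and that of the antisense loci from 0.11 to 0.25, gave 59 loci higher in replicate 2 and 21 higher in replicate 1, while for all features the split went from 545 and 566 to 731 and 242.

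Of the 72 called loci 25 held reads in both libraries, 21 of them higher in replicate 2. Sdc4 was 1.97 times as high in replicate 2 (adjusted p = 1.56e-10, exact binomial test), and its sense reads gave an adjusted p of 0.438. Actb was 1.39 times as high (adjusted p = 1.12e-07, exact binomial test), while its sense reads were lower in replicate 2 with a log2 ratio of -0.20 (adjusted p = 0.0387). Camk2b was 1.67 times, Dhrs3, a retinal reductase, 1.73 times and Ptp4a1, a tyrosine phosphatase, 1.78 times as high in replicate 2. Hnrnpl, an RNA-binding protein gene, had 41 and 76 antisense reads and 219 and 142 sense reads, with both strands called and in opposite directions. The host itself was tested for 57 of the 72 loci and called for 8, of which 3 went the same way as the antisense locus.

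The other 47 called loci held no read of an unspliced antisense model in 1 library, 26 in replicate 1 and 21 in replicate 2. At 43 of them that library did hold unspliced reads of the same strand within 100 bases, under another name or position. The most-read model there was of the genomic class at 29 loci. At 10 it was an antisense model just outside the locus, at 3 an intergenic one and at 1 an incomplete splice match. The locus at Tbx3, a T-box transcription factor, at chr5:119671365-119672404 on the minus strand shows this. It held 0 and 119 antisense reads, while unspliced reads of other classes on that strand numbered 78 and 20. At Gm2a, models of 1 base held 86 reads in replicate 2 and 43 in replicate 1 at different positions, and both were called. At Ube3a the antisense locus held 0 and 15 reads, and replicate 1 had 14 unspliced reads of another class on that strand. At Atp5g2, a subunit of ATP synthase, the locus held 11 and 0 reads and replicate 2 had 10 of another class. When unspliced models of every class with 1 base in the locus were counted, 44 of 1150 loci were called, 38 of them among the 72. Then 65.0% of loci held reads in both libraries. A count of 0 in these tables thus does not show that the strand was without reads.

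**Figure D5:**
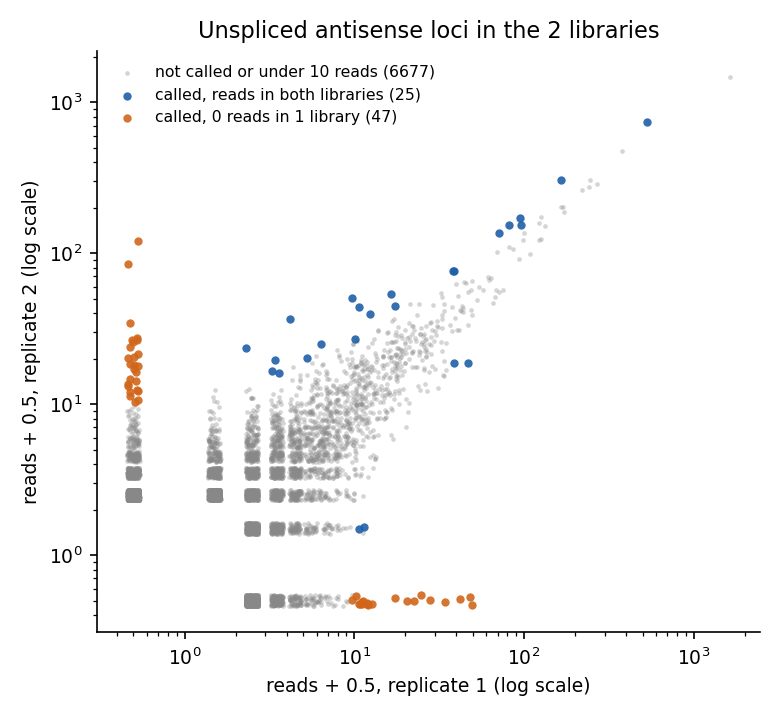
Reads of each locus plus 0.5 in replicate 1 (x axis, log scale) and replicate 2 (y axis, log scale), with a small random shift so that equal counts can be seen. Blue points are the 25 called loci with reads in both libraries, orange points the 47 called loci with 0 reads in 1 library, and grey points the rest.

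Unspliced models of antisense genes that carry another class lie outside the rule. There were 141 of them with at least 2 reads in replicate 1, holding 853 reads, and 150 in replicate 2, holding 777. A second measure of strand came from the ERCC spike-ins, which are made as 1 strand. The 47 spike-ins with reads on their annotated strand in replicate 1 and 44 in replicate 2 held 16882 and 17960 reads there and 0 on the other strand. A count of 0 allows up to 3 reads, a share of 0.0178% and 0.0167%. A further 4 spike-ins had reads only on the strand opposite to their annotation, 136 and 143 in all and 0 on the annotated strand. Their models met the rule 4 times in replicate 1 and 3 times in replicate 2 and were left out of every share and test.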

How the data were processed

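Reads were counted per transcript model by the authors: the deposited values are whole-number counts with no normalization, 1 table per library, and the deposited annotation names TALON as its source. Class, exon number and model length are as deposited, per the file headers. The build is mm10 (GRCm38) with GENCODE M21, per the file headers. No source used here names the aligner or the TALON version.

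Members, lists and tests were chosen with earlier results of these data known. Models were matched between libraries by overlap, since model names differ. The host was the opposite-strand gene with most overlapped bases, judged on the start and end listed for the gene. Levels are counts per 1000000 reads outside spike-ins. Named loci were the 20 with most reads, up to 10 called, up to 4 hosts per list, and 5 each of the longest, of hosts without sense reads, intronic, over a start and over an end. Shares have 95% Wilson intervals. Intervals and the limit of 3 reads for a count of 0 (3.11 and 3.05 per 1000000 reads) cover counting error only, since the labels name no molecular identifiers. The exact binomial test was tested on simulated data. Exonic bases came from 141767 transcripts, with all 2810239 bases shared with RefSeq promoter windows of GRCm38.p6 equal. The planned A count after the ends of known transcripts needs genome bases that were not used here, so unspliced sense models took its place. Tools were Python 3.11.15, pandas 2.3.3, scipy 1.17.1 and, for TMM only, edgeR 4.0.16. Some of the named loci are not reported here.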

Additional observations from a re-analysis of the deposited data

How the results depend on the processing

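Counts of members and loci follow the read threshold. At least 3 reads left 5121 members in 3529 loci and at least 5 reads left 2434 in 1629, and either library alone gave 4409 to 5022 members and 4325 to 4926 loci. Loci with reads in both libraries made up 73.8% at 3 reads, 84.6% at 5, 55.7% to 64.1% for loci chosen in 1 library, and 65.0% with all unspliced classes, an alternative chosen after seeing the data. The exon-only share, 22.3% over both libraries, was 17.1% with exons of protein-coding transcripts only, 13.3% for 1 read, 33.1% at 5 reads and 15% with both ends free, which was also chosen after seeing the data. The intron-only share, 38.8%, was 45.8%, 51.9%, 28.4% and 65.9% under these settings. Members over the start made up 3.33%, against 2.20% for 1 read and 1.16% with free ends. Members over the end made up 1.76%, against 1.04% for 1 read, 2.80% at 5 reads and 1.13% with free ends. Leaving out either library gave 21.8% to 22.8%, 37.0% to 40.3%, 3.13% to 3.56% and 1.61% to 1.93% for these 4 places. Calls between libraries fell from 72 to 39 when only features of at least 20 reads were tested, since fewer loci were then tested, and to 44 with all unspliced classes. They numbered 80 with TMM, 72 at 5 reads, 71 with any overlap and 80 without models under 50 bases, the last chosen after seeing the data. Antisense reads per 100 sense reads were 10.2 over both libraries, 9.46 to 10.9 in either and 14.1 against known models only. The A-rich share of free exonic 3' ends, 75.6%, was 62.6% at 15 A, 63.4% for 6 A in a row, 73.8% for members of at least 5 reads and 75.4% to 75.8% in either library. The poly(A) signal share, 11.8%, was 9.69% in 40 bases, 19.6% in 100, 8.39% for AATAAA alone, 8.66% at 5 reads and 11.2% to 12.3% in either library. Where not stated, the cause of a move was not tested. No paired analysis was possible because there is 1 group. Depth limits what is seen: a locus of 2 reads was found again in the other library in 50.1% and 40.4% of cases.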

Other observations

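A few further values belong to no comparison above. Models of 1 base held 685 reads in replicate 1 and 659 in replicate 2, and 64 of 86 and 73 of 92 such models lay in a last exon of the host. How such models arose is not stated in the sources used here. The 100 annotated genes with the most sense reads hosted a locus in 35 cases, and the first 500 in 179.

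Antisense models of 5 or more reads had the poly(A) signal in 8.00% and 9.19% of exonic free 3' ends, and those of 1 read in 13.2% and 11.7%. Read on the host strand at the free 5' end of exonic members, the signal was in 11.3% of 512 and 12.5% of 599 windows, and an A-rich stretch followed in 2.15% and 2.84%. Members that overlapped an annotated gene on their own strand as well numbered 96 and 121.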
